A study of Homo sapiens with 2 samples.

Results

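PRDM1 (BLIMP-1) is the zinc finger repressor under which activated B cells become plasma cells, the cells that secrete antibody. Where it was bound was examined here at 7 genes that define the plasma-cell state: the transcription factor genes PRDM1 and IRF4, the surface marker genes SDC1, TNFRSF17, CD38 and SLAMF7, and the antibody-assembly gene JCHAIN. The peaks were those of the complete deposited list whose summit lay in the gene body or within 25 kb of it, and genes without any peak were kept. This gave 8 of the 9669 peaks, spread over 6 of the 7 genes. The gene bodies were taken in whole kb on GRCh37, so distances from a gene start or end carry a rounding error of up to 0.5 kb.

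The data are from U266, a human cell line long established from multiple myeloma, a plasma-cell tumour. There was 1 chromatin immunoprecipitation (ChIP-seq) library made with the PRDM1 antibody C14A4, and 1 library of input DNA that was not immunoprecipitated. Both were labelled as U266 and no treatment was named, although the series speaks of 2 myeloma lines. The PRDM1 library held 7854466 tags after removal of duplicates and the input library 8556458. Neither library had a replicate, so no test between conditions was possible. Ratios and intervals use the PRDM1 tags after scaling to the input library by 1.09, rounded down. The intervals cover counting error of these scaled tags only. The tags expected from the input were taken as known, so error in them is left out.

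Plasma cells are held in their state by PRDM1 and IRF4 together. PRDM1 silences genes of the B-cell programme, and IRF4 activates plasma-cell genes, PRDM1 among them. PRDM1 binds DNA through its zinc fingers at GAAA-rich sites that resemble the sites of the interferon regulatory factors, the family of IRF4. Syndecan-1 (SDC1), BCMA (TNFRSF17), CD38 and SLAMF7 are displayed on the surface of plasma and myeloma cells, and the last 3 are targets of antibody or cell therapies for myeloma.

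Promoter sequences of 5 of the 7 genes were in the RefSeq table used (GRCh38.p14, 7 promoters in all); TNFRSF17 and SLAMF7 were not in it. Those shown are the 250 bases before the start of IRF4 and CD38, where a peak lay at the gene start, of the later start of PRDM1, and of JCHAIN, which had no peak. They are written 5′ to 3′ along the gene, and capitals mark the words GAAAG or GTGAAA on either strand (CTTTC or TTTCAC when read along the gene). They lie at chr6:391502-391751 (+ strand) for IRF4, chr4:15778078-15778327 (+ strand) for CD38, chr6:106098691-106098940 (+ strand) for the later PRDM1 start and chr4:70666509-70666758 (− strand) for JCHAIN.
IRF4: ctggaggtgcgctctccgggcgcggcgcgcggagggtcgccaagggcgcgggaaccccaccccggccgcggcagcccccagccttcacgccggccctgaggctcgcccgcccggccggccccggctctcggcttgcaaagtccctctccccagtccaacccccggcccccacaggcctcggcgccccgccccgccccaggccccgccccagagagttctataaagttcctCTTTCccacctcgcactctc
CD38: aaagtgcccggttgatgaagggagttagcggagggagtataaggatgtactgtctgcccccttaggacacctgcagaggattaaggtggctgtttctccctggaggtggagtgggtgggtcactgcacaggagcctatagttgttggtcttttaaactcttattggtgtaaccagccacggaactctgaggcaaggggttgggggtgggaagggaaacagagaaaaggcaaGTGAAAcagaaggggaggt
PRDM1, later start: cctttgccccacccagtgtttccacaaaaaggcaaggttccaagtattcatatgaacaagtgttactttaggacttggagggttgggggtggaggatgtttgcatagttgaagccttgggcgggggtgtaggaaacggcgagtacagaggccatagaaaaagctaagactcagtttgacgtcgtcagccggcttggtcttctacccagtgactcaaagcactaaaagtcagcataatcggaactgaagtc
JCHAIN: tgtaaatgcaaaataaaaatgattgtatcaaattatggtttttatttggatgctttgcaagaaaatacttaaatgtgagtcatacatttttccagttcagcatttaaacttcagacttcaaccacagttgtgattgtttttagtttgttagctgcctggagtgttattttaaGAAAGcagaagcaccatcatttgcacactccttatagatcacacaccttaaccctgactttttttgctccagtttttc

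Longer words built on the PRDM1 site were searched on both strands in the 300 bases of each promoter (250 before and 50 after the start). None of the 7 promoters of these genes held GAAAGTG, which 4.68% of all 35116 promoters in the table held. None held GAAA repeated after any 2 bases, against 3.57% of all promoters, nor GAAAGTG followed by AAA, against 0.202%. The last of these words contains the first and is also a case of the second. The short word GAAAG was in 5 of the 7 promoters, those of JCHAIN, IRF4, both SDC1 starts and the first PRDM1 start, and 54.7% of all promoters held it. GTGAAA, which shares the letters GAAA with the other words, was in 2 of the 7, those of CD38 and IRF4, against 12.5% of all; the copy of IRF4 lies after the start and is not in the sequence shown. Both short words were chosen after the sequences had been seen. These are letter matches in reference sequence and not measured sites.

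A peak was listed within 25 kb of 6 of the 7 genes, and JCHAIN was the gene without one. When the genome was cut into windows of 69 kb, the median length of the 7 regions searched, 17.5% of the windows held a peak. For the separate lengths, from 53 kb at TNFRSF17 to 121 kb at CD38, the shares were 13.9% and 27.2%. The regions searched came to 518 kb in all and held 15.4 peaks per Mb, against 3.12 per Mb over the genome, or 8 peaks where the mean density gives 1.62. Genome windows include long stretches without genes, and regions around other genes were not compared here.

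None of the 8 peaks passed the limits that the authors set for their filtered list, at least 50 tags and a false discovery rate (FDR) of at most 5%. Of all 9669 peaks, 9.17% passed them. The FDR is the authors' own value for each peak, which compares calls made after exchanging ChIP and input with the real calls, down to that peak's score. At an FDR of at most 5% alone, 4 of the 8 peaks passed, 1 at PRDM1, 1 at SDC1 and both at CD38, and 43.5% of all peaks did. The median peak of the 8 held 14.5 tags against 15 over the list, and 5.1 times the tags expected from the input against 5.54. By these shares and medians the 8 peaks lay close to the list as a whole.

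**Figure D1:**
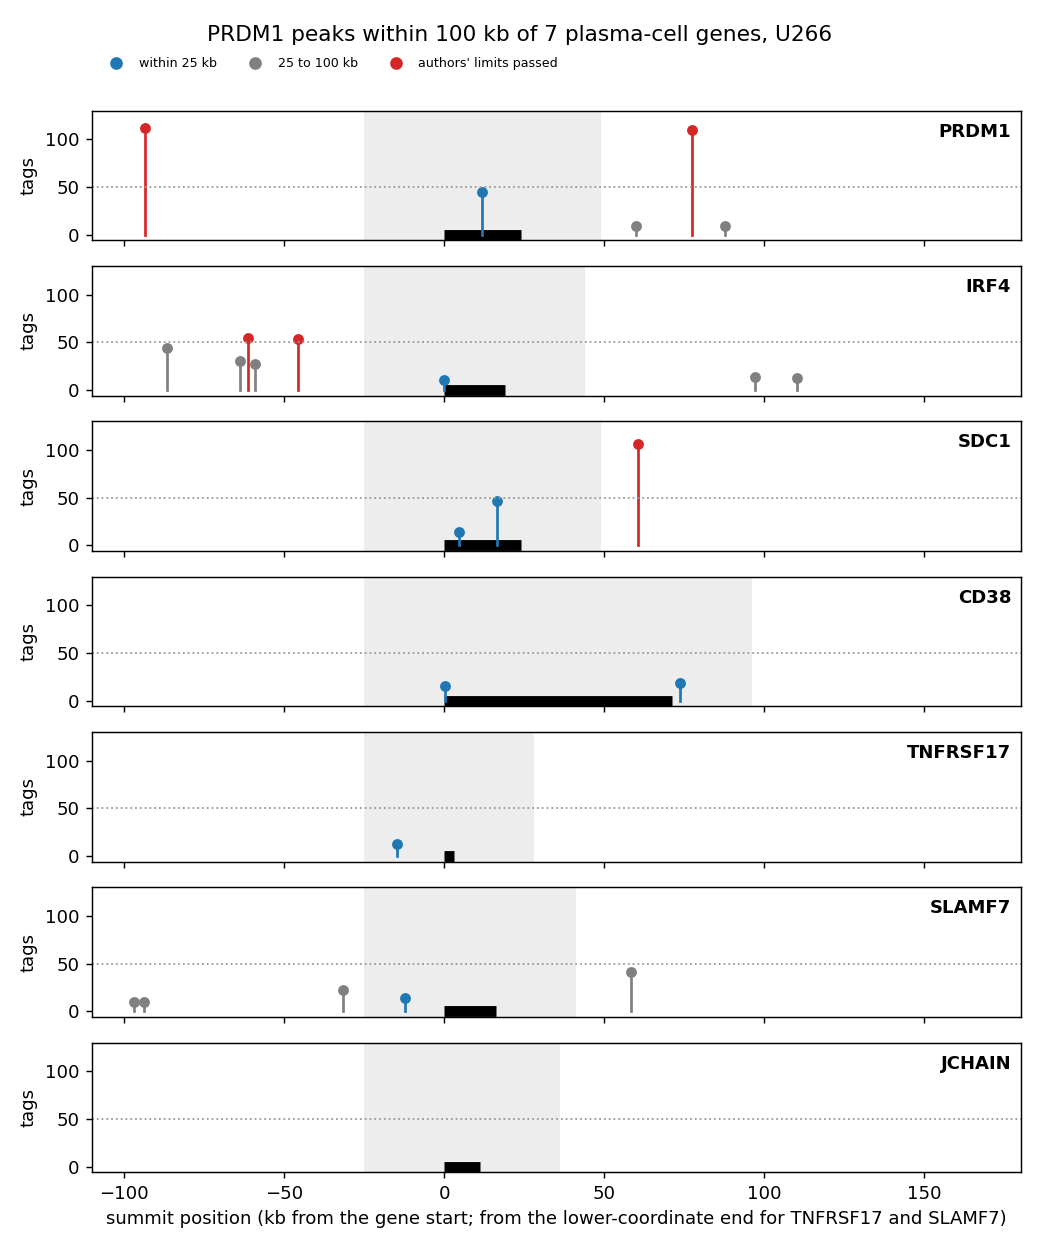
PRDM1 peaks within 100 kb of each of the 7 genes, with the summit position in kb from the gene start on the horizontal axis (in the direction of transcription, or from the lower-coordinate end for TNFRSF17 and SLAMF7, whose strand was not in the table used) and the tags of the peak on the vertical axis. Black bars are gene bodies, grey bands reach 25 kb to each side, and the dotted line is the authors' minimum of 50 tags. All 8 peaks inside the bands lie below the line, and the 5 red peaks that passed the authors' limits lie outside the bands of PRDM1, IRF4 and SDC1.

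PRDM1 had 1 peak in its own gene, with the highest ratio of tags to expected tags of the 8. It lay at chr6:106545553-106546906 and held 45 tags, 5 short of the authors' minimum, with an FDR of 0%. Scaled to the input library these were 49 tags, 11.4 times the number expected from the input. The exact 95% Poisson interval, taken on the scaled tags, was 8.45 to 15.1. The background used by the caller there was the genome mean, the lowest value it allows, so the local input was not above that mean and may have been below it. In the list, 94% of peaks had a lower ratio, 92.2% a lower score (the authors' −log10 of the peak's p-value, times 10) and 89% fewer tags. Peaks of 45 to 49 tags numbered 164, of which 161 had an FDR of at most 5%, and 37 of the 164 had a higher ratio than the PRDM1 peak.

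The summit at PRDM1 lay 11.9 kb inside the gene, and the peak covered 11.6 to 12.9 kb after the gene start of the rule. RefSeq gives PRDM1 more than 1 start, and in its GRCh38.p14 table the later start lies 12.6 kb after the first. That spacing falls within the stretch the peak covers, but the rounding of the gene start, up to 0.5 kb, could move it outside. The peak and the table are on different builds and no coordinate was converted, so the values are set side by side only. The 250 bases before this later start, printed above, held neither GAAAG nor GTGAAA. By the distances given they do not reach back to the summit, though the rounding of up to 0.5 kb could close that gap. The sequence at the summit was not read.

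The strongest peaks near PRDM1 lay farther out, on both sides of the gene. At chr6:106439472-106441157, 93.6 kb before the start, a peak of 112 tags held 22.8 times the expected tags (19 to 27.3). It ranked 96 by score in the list. At chr6:106610844-106612785, 53.5 kb past the gene end, another held 110 tags at 19.3 times the expected number (16 to 23.1), and ranked 112. Both passed the authors' limits, and the intervals of both lay above that of the peak inside the gene.

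The RefSeq record of PRDM1 reaches farther upstream than the body used here. On GRCh38.p14 it is 117 kb long and begins 93.6 kb before the first start of the promoter table, while the body used is 24 kb long. The distant upstream peak covered 94.5 to 92.8 kb before the start. Again these are distances within 2 builds, set side by side and not converted. The other 2 peaks within 100 kb of PRDM1, both on the downstream side, held 9 tags each at FDRs of 47% and 34.4%. PREP and ATG5 are the neighbouring protein-coding genes in the RefSeq order.

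IRF4, the partner factor that plasma and myeloma cells depend on, had only a weak peak. It lay at the gene start, chr6:391650-392084, with its summit 0.115 kb before the rounded start, which is within the rounding. It held 10 tags, 5 times the 2 expected (2.4 to 9.19). Its FDR was 47%, near the highest in the list. Of all peaks, 17% had an FDR of 40% or more, and 1521 peaks held exactly 10 tags, with a median FDR of 41.8%.

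Stronger peaks lay upstream of IRF4, between it and the neighbouring gene DUSP22 or in that gene, whose position on this build was not used here. From 45.6 to 86.5 kb before the start there were 5 peaks of 27 to 54 tags. The peaks at chr6:345764-347520 (53 tags) and chr6:329525-331171 (54 tags) passed the authors' limits, each with an FDR of 0.08%. Over the expected tags these 5 ranged from 2.47 to 6.38 times. The input background under them was 1.61 to 5.05 times the genome mean, above the 1.45 times at the gene start, and its part in these calls was not tested. Past the gene end there were 2 more within 100 kb, of 14 and 13 tags.

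**Figure D2:**
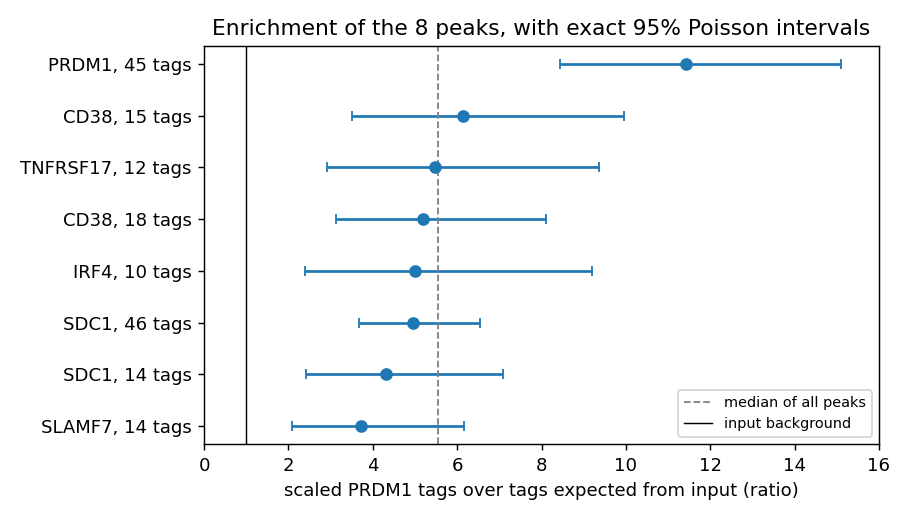
Scaled tags over expected for the 8 peaks, on the horizontal axis, with exact 95% Poisson intervals on the scaled tags as bars. The PRDM1 peak stands at 11.4 and the other 7 lie between 3.73 and 6.13, around the median of all peaks at 5.54 (dashed line). Intervals above 1 follow from the calling cutoff.

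SDC1 encodes syndecan-1 or CD138, the heparan sulphate proteoglycan by which plasma cells are commonly sorted. It had 2 summits inside the gene body, both over 4 kb from the gene start. The larger peak, at chr2:20407399-20408742, held 46 tags, 4 short of the authors' minimum, with an FDR of 0.13%. Its summit was 16.6 kb after the gene start. The smaller, at chr2:20420088-20420585, was 4.61 kb after the start and held 14 tags at an FDR of 24.1%.

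The SDC1 peak nearly equalled the PRDM1 peak in tags but not over its background. It held 4.96 times the expected tags (3.68 to 6.54) against 11.4 times (8.45 to 15.1) at PRDM1, and these intervals do not overlap. The input background was 2.37 times the genome mean at the larger SDC1 peak and 2.21 times at the smaller, which held 4.3 times the expected tags (2.41 to 7.1). Of the 164 peaks with 45 to 49 tags, 22 had a lower ratio than the larger SDC1 peak. Farther out, 36.6 kb past the gene end at chr2:20363979-20366223, a peak of 106 tags passed the authors' limits. It held only 2.25 times the expected tags (1.86 to 2.71), over an input background 7.17 times the genome mean.

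CD38, an ectoenzyme that consumes NAD and makes calcium-releasing messengers, had a peak at each end of the gene. The peak at the start, chr4:15779713-15780381, had its summit 0.072 kb from the rounded start. It held 15 tags, 6.13 times the expected number (3.5 to 9.96), at an FDR of 3.49%. The other, at chr4:15853223-15854114, held 18 tags, 5.2 times the expected number (3.13 to 8.11), at an FDR of 3.37%. The intervals of the 2 peaks overlap, and the input background was 1.23 and 1.29 times the genome mean.

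The second CD38 summit lay 2.74 kb past the gene end of the rule, and 73.7 kb after the start. The GRCh38.p14 gene record is 74.9 kb long, longer than the 71 kb used here, so by length alone this peak would fall before the end of that record. No other peak was listed within 100 kb of CD38, and the nearest that passed the authors' limits was 1700 kb away. Among the 7 genes CD38 and IRF4 were those with a summit within 1 kb of the gene start of the rule. Of these 2 peaks, the one at CD38 passed the 5% FDR limit. The later RefSeq start of PRDM1, placed here on another build only, was not counted as a start. The printed CD38 promoter holds GTGAAA shortly before the start. That word was chosen after the sequences had been seen, and 12.5% of all promoters hold it. None of the longer words searched was in the CD38 promoter.

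TNFRSF17 encodes BCMA, the receptor through which plasma cells receive the survival signals BAFF and APRIL. Its only peak within 100 kb was at chr16:12044175-12044767, 14.6 kb before the lower-coordinate end of the gene. It held 12 tags, 5.48 times the expected number (2.92 to 9.37), at an FDR of 14.2%. In the RefSeq table the gene overlaps NPIPB2, a member of a family of near-identical copies on chromosome 16. The sources used here do not say how reads with several matches were placed, so this count is uncertain. The nearest peak at the authors' limits was 295 kb away.

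SLAMF7, a receptor of the SLAM family that is dense on myeloma cells, had the peak with the lowest ratio of the 8, though its interval overlaps those of the 6 peaks other than that of PRDM1. It lay 12.4 kb before the lower-coordinate end of the gene at chr1:160696339-160697008. It held 14 tags, 3.73 times the expected number (2.09 to 6.15), at an FDR of 43.2%, and 7.14% of all peaks had a lower ratio. Another 4 peaks lay between 25 and 100 kb from the gene. The largest of them, at chr1:160766694-160767909 and 42.2 kb past the higher-coordinate end, held 41 tags at an FDR of 0.12%, below the minimum of 50 tags. LY9, another SLAM family gene, is the next gene on that side in the RefSeq order.

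JCHAIN encodes the joining chain that links the units of IgM and dimeric IgA, and had no peak within 100 kb. The nearest listed summits were 1224 kb below the gene, with 38 tags, and 2593 kb above it, with 44 tags, both at an FDR of 0%. The gene thus sat in a stretch of 3828 kb between listed summits. Of 9645 such stretches in the list 46 were at least as long, or 0.477%, but these held 10.6% of the summed length of all stretches. Alignability and DNA copy number in this stretch were not examined, and only the rows of the list as used here were counted. The smallest peak in the list held 9 tags, but listing depends on the p cutoff against the local background. Accumulations of tags that missed the cutoff, possibly also some of more than 9 tags, would not be listed.

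**Figure D3:**
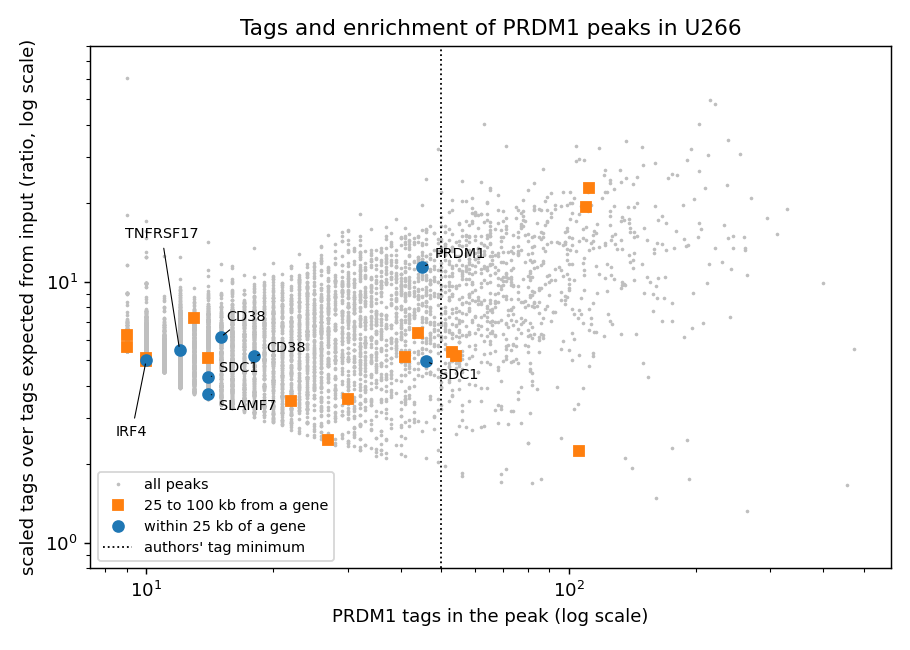
Tags (horizontal, log scale) and tags over expected (vertical, log scale) of the 9667 PRDM1 peaks with a recovered background, grey, with the 8 peaks within 25 kb of the plasma-cell genes in blue and the 16 peaks from 25 to 100 kb in orange. The PRDM1 and larger SDC1 peaks stand just left of the 50-tag line, the other 6 blue peaks hold 10 to 18 tags, and the 2 orange peaks flanking PRDM1 reach 112 and 110 tags at ratios of 22.8 and 19.3.

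The PRDM1 peak had the highest ratio of the 8, but its interval stood apart from only 4 of the other 7. The interval of the PRDM1 peak lay above those of both SDC1 peaks, the SLAMF7 peak and the downstream CD38 peak. It overlapped those of IRF4, TNFRSF17 and the CD38 start. This split depends on tags as well as ratios. The larger SDC1 peak, at 4.96 times with 46 tags, stood apart, and IRF4, at 5 times with 10 tags, overlapped. Of all peaks, 94% had a lower ratio than the PRDM1 peak, but how many had intervals below its own was not counted. Among the other 7, the ratios ran from 3.73 to 6.13 and every pair of intervals overlapped, since the highest lower bound was 3.68 and the lowest upper bound 6.15. Tags alone gave another grouping, with 45 at PRDM1 and 46 at SDC1 above 10 to 18 at the rest.

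What was counted depended on the reach and on the gene bodies used. The farthest summit inside the reach of 25 kb, 14.6 kb from TNFRSF17, held 12 tags. The nearest outside it, 31.6 kb from SLAMF7, held 22 tags at 3.48 times the expected number. Any reach between these distances gives the same 8 peaks. The RefSeq record of PRDM1 begins 93.6 kb before the first start on GRCh38.p14. The peak of 112 tags lay 93.6 kb before the start used. With that record as the body it could be counted, which was not tested. Within 100 kb there were 24 peaks around the same 6 genes. Of these, 5 passed the authors' limits, and 9.17% of all peaks did. They were 2 on either side of PRDM1, 2 upstream of IRF4 on the side of DUSP22, and 1 past the end of SDC1. So 3 of the 7 genes had such a peak within 100 kb. Of genome windows of 219 kb, the median length of those regions, 5.62% held one. Those windows also include long stretches without genes, and regions around other genes were not compared. The 7 genes were chosen with earlier results of these data known. These 5 peaks were unlike in enrichment, from 2.25 times the expected tags at SDC1 to 22.8 times at PRDM1.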

How the data were processed

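The submitters' processing notes name CASAVA 1.8.2, Bowtie 0.12.7 and MACS 1.4. Peaks were called by the authors with MACS 1.4.1 on merged alignments of ChIP against input, at a p cutoff of 1e-05 and a fragment size of 200 bp, per the file headers. The deposited tables give tag counts, a score (−log10 p times 10), a fold ratio at the summit and an FDR percent for each peak, and widths and summit offsets, all as the authors left them. No genome build is named in the sources used here. No peak passed a GRCh37 chromosome end and 53 passed one of GRCh38 (lengths typed from general knowledge).

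Summit position was start plus summit offset. Expected tags were solved from score and tags (scaled by 1.09, rounded down) as the Poisson mean over the peak, with scipy 1.17.1. Rescaled from the peak width to 200 bp and multiplied by the deposited fold, this mean gave a summit height. That height was whole within 0.06 tags for 98.7% of 9667 peaks. The solving and the window count were tested on simulated data. Every peak near the 7 genes was named. The genes, lists and words were chosen with earlier results of these data known. Sequences are from RefSeq (GRCh38.p14). The list of other plasma-cell genes was not analysed, because no GRCh37 annotation was used here.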

Additional observations from a re-analysis of the deposited data

How the results depend on the processing

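The 8 peaks and 6 genes became 6 and 4 within 5 or 10 kb of the gene bodies, which is within 1.5 times, and did not change with any overlap of the peak in place of its summit or with bodies widened by 1 kb. Within 50 kb there were 13 peaks, 2 of them at the authors' limits, and within 100 kb 24 and 5, where none was counted at 25 kb; the number of genes was 6 at both distances. With an FDR of at most 5% there were 4 peaks at 3 genes, with 20% 5 peaks at 4 genes, and with at least 50 tags as well 0 peaks at 0 genes. Lowering the tag minimum to 25 let 2 peaks pass, those at PRDM1 and SDC1. A minimum of 100 tags, or an FDR of at most 1% with the minimum of 50 tags, left 0. The shares of all peaks at a minimum of 25 tags or an FDR of 20% are not given, so those counts cannot be set against the list. The ratios of the 8 peaks were recomputed with tags rounded to the nearest and unscaled, and all 16 values stayed inside the intervals printed. Counting error alone leaves a wide interval at few tags, 2.4 to 9.19 times the expected number for the 10 tags at IRF4; other depths were not examined. No paired analysis was possible because neither library had a replicate. The motif search at peak summits was not run, since no genome of the build was used here.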
